A study of Homo sapiens with 16 samples.

Results

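The comparison described here is between EIF4G2 minigenes that carry introns 19 and 20 and EIF4G2 minigenes that lack them, read at the introns upstream of intron 18. The 8 RT-PCR libraries labelled long, long_alt, short_1 or short_1_alt were chosen by their labels, out of 16 libraries in the series. All came from HEK293T cells, a human embryonic kidney line, transiently transfected with a plasmid in which the CMV promoter drives a stretch of EIF4G2. The long and long_alt minigenes span exons 15 to 21, and the short_1 and short_1_alt minigenes span exons 15 to 19, so the latter also lack exons 20 and 21. The long_alt and short_1_alt minigenes carry an alternative allele located where intron 17 ends, in its 3′ splice site, and the long and short_1 minigenes carry the reference allele. Each minigene had 2 biological replicates, which gives 4 libraries with introns 19 and 20 and 4 without. Amplicons were made from random-primed cDNA with a forward primer specific to the minigene. The reverse primer lay in exon 21 for the long constructs and in exon 19 for the short ones, so the amplicons also differed in length. Non-transfected cells (NT, 2 libraries) gave the endogenous transcripts over exons 15 to 21, and the direct RNA of the long and short_1 minigenes (1 library each) gave reads without amplification.

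The EIF4G2 gene encodes a translation initiation factor related to eIF4G that lacks the part that binds the cap-binding protein. In a multi-intron transcript, introns are removed in an order that need not follow the order of transcription, and a read of a partially spliced molecule shows which introns left before the others. Splice sites can be paired across an intron or first across an exon, and removal of one intron can therefore depend on the splice sites of its neighbours. The comparison asks whether introns 15, 16 and 17, which both kinds of minigene contain with the same flanking exons, were spliced to the same extent when introns 19 and 20 were absent.

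The splice sites in question are shown first, because every status below is a statement about them. They are the reference sequence of GRCh38 (hg38) at the exon boundaries of GENCODE release 44, on the minus strand of chromosome 11, written 5′ to 3′ with intron bases in capitals and exon bases in lower case. The minigenes with the alternative allele differ from the reference at the end of intron 17.
Intron 15, 5′ splice site: ctgggacagGTACAGACCAT
Intron 15, 3′ splice site: CTGTCATTGCTTGTTTTTTAGacac
Intron 16, 5′ splice site: aaactaactGTAAGTTTCAA
Intron 16, 3′ splice site: AGATACTTGTGTTCTTCACAGgaaa
Intron 17, 5′ splice site: ttcatgcagGTAGGACACTT
Intron 17, 3′ splice site: CTGTTGTATATTTCTTTCAAGgctt
Intron 18, 5′ splice site: tgctcccagGTAAGAGAATG
Intron 18, 3′ splice site: CAGGTGGCTTTGTCTCTTCAGaaat
All 4 introns lie between coding exons, begin with GT and end with AG. Intron 15 (chr11:10800836-10800961) is 126 bases long, intron 16 (chr11:10800648-10800730) and intron 17 (chr11:10800349-10800431) are 83 bases each, and intron 18 (chr11:10799757-10800089) is 333 bases. In the 20 bases before the terminal AG, pyrimidines made up 80% in intron 15, 60% in intron 16, 70% in intron 17 and 65% in intron 18.

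Each read carried a status for every intron it covered. A status was excised, retained, or skipped, the last meaning that a junction jumped over 1 or both of that intron's splice sites. Reads that covered exactly introns 15 to 20 in the long constructs or exactly introns 15 to 18 in the short ones, with no undetermined status, numbered 22185 to 45736 per library. Undetermined reads were 0.701 to 0.850% of covering reads with introns 19 and 20 and 2.11 to 2.53% without, and in the short constructs most of them were undetermined at intron 18. A count of 0 in a library allows a share of up to 0.00656 to 0.0135%. Without molecular identifiers, such limits and all intervals below cover counting error only.

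The libraries numbered 2 stood apart from those numbered 1. Retention of introns 15, 16 and 17 was higher in replicate 2 than in replicate 1 of all 4 minigenes, by 2.37 to 6.55 times for intron 15, 2.14 to 5.70 times for intron 16 and 1.49 to 4.84 times for intron 17. Reads that retained all of introns 15 to 20 numbered 36 in long replicate 2 and 48 in long_alt replicate 2, and 0 in replicate 1 of either. In the endogenous transcripts they numbered 27 in replicate 2 and 0 in replicate 1. What the replicate numbers share beyond a number is not given in the sources used here, and values within each number are therefore given beside the main differences.

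Introns 15, 16 and 17 were all retained more often without introns 19 and 20. Retention rose from 0.435% ± 0.366 to 6.08% ± 3.23 for intron 15, from 0.865% ± 0.737 to 11.6% ± 5.41 for intron 16 and from 2.61% ± 2.42 to 20.4% ± 10.6 for intron 17 (SD, n = 4 each). As background, intron 18 was retained in 2.45% ± 1.52 of reads with introns 19 and 20 and in 73.2% ± 7.79 without. Intron 15 was the least retained of the 3 upstream introns in every one of the 8 libraries, and intron 17 the most.

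Intron 15 was retained in 0.117% and 0.680% of long reads and in 0.125% and 0.816% of long_alt reads (replicates 1 and 2), against 2.83% and 8.77% of short_1 reads and 3.77% and 8.95% of short_1_alt reads. The 2 architectures did not overlap, and the lowest short construct exceeded the highest long construct by more than the spread between the 4 long libraries. The exact permutation test over the 8 libraries (two-sided, 70 assignments) gave p = 0.0286, the smallest this design allows, and 0.0429 after Benjamini-Hochberg adjustment over the 12 main comparisons. These 12 were chosen with earlier results of these data known. The same p-value and adjusted value hold for each difference below said to have reached that smallest p.

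Intron 16 was retained in 0.209% and 1.19% of long reads and 0.311% and 1.75% of long_alt reads, against 5.92% and 14.3% of short_1 reads and 8.29% and 17.7% of short_1_alt reads. Intron 17 was retained in 0.309% and 1.49% of long reads and 2.70% and 5.94% of long_alt reads, against 7.93% and 17.6% of short_1 reads and 22.5% and 33.5% of short_1_alt reads. For both introns the architectures did not overlap, and both differences reached the smallest p. Intron 17 had the narrowest margin, between 5.94% in long_alt replicate 2 and 7.93% in short_1 replicate 1.

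**Figure D1:**
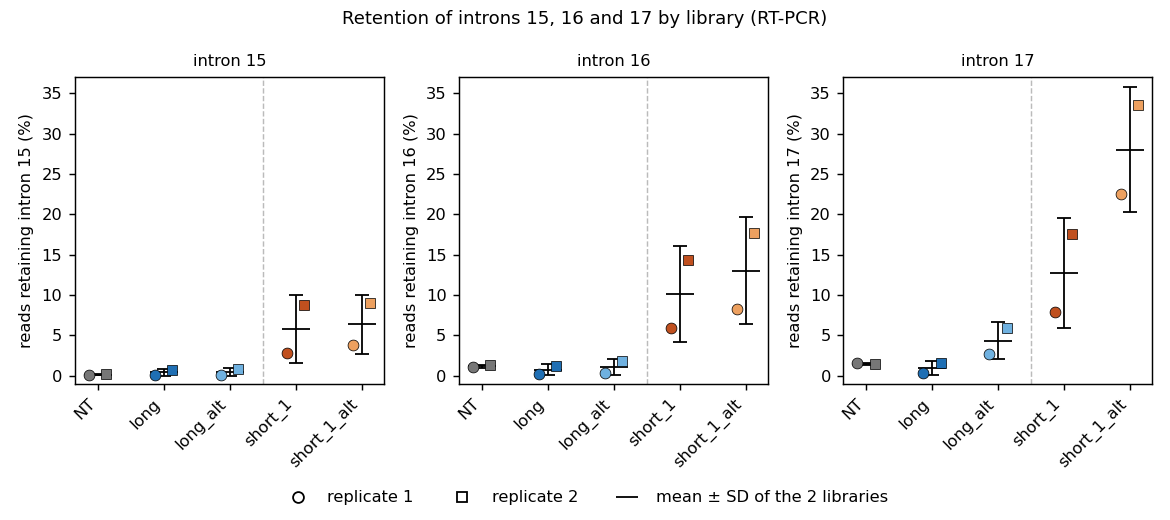
Reads retaining intron 15, 16 or 17 (percent of reads used) in each RT-PCR library of NT cells and of the 4 minigenes; circles are replicate 1, squares replicate 2, and bars the mean ± SD of the 2 libraries. The dashed line separates transcripts with introns 19 and 20 (left) from those without (right), and in every panel all 4 libraries on the right lie above all those on the left.

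The differences held within each replicate number. Among the libraries numbered 1, retention without introns 19 and 20 exceeded retention with them by 3.18 percentage points for intron 15, 6.85 for intron 16 and 13.7 for intron 17. Among the libraries numbered 2 it did so by 8.11, 14.5 and 21.8 percentage points, and the architectures did not overlap within either number. The same held within each allele. For intron 17 the difference was 11.9 percentage points with the reference allele and 23.7 with the alternative allele. The test of the difference between those 2 values gave an exact permutation p of 0.444. With 36 assignments that test cannot go below 0.0556, so it could not have passed the threshold.

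In the endogenous transcripts, which carry introns 19 and 20 and all other exons, retention of the upstream introns lay within the range of the long constructs or below it. Intron 15 was retained in 0.0578% and 0.137% of NT reads, intron 16 in 1.03% and 1.28%, and intron 17 in 1.53% and 1.38%. All 6 values lay below the lowest short construct for the same intron.

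Reads with at least 1 of introns 15 to 17 retained made up 3.11% ± 2.59 with introns 19 and 20 and 22.0% ± 10.7 without (SD, n = 4 each). Reads with exactly 1 retained were 2.44% and 11.0%, those with 2 were 0.545% and 5.92%, and those with all 3 were 0.127% and 5.05%. In turn, the shares without introns 19 and 20 were 4.52, 10.9 and 39.9 times those with them. The classes with 2 and with 3 retained introns did not overlap between architectures, each at the smallest p and 0.0462 after adjustment over all 63 measures computed. The class with 1 retained intron did overlap (p = 0.0571, exact permutation test), because long_alt replicate 2 at 5.17% exceeded short_1 replicate 1 at 3.97%.

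Partially spliced reads, defined as those that retained at least 1 of introns 15 to 17, excised at least 1 and skipped none, made up 0.452% and 1.77% of long reads and 2.85% and 6.06% of long_alt reads. They made up 7.04% and 12.2% of short_1 reads and 21.0% and 27.3% of short_1_alt reads. The architectures did not overlap, with a difference of 14.1 percentage points at the smallest p. Reads with all of introns 15 to 17 retained numbered 0 in long replicate 1 and 1 in long_alt replicate 1 (0.00219%), and were 0.208% and 0.296% in the replicates numbered 2. In the short constructs they were 2.15% and 7.46% (short_1) and 2.91% and 7.67% (short_1_alt).

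The RNA had been treated with DNase before reverse transcription, and whether the fully unspliced reads came from RNA was not tested. Without the reads that retained all of introns 15 to 18, an alternative added after the values were seen, intron 15 retention was 0.315% with introns 19 and 20 and 1.16% without, intron 16 retention 0.746% and 6.97%, and intron 17 retention 2.49% and 16.3%. The architectures still did not overlap at any of the 3 introns, and each difference kept an exact permutation p of 0.0286. The difference at intron 15 fell from 5.64 to 0.843 percentage points, so most of it lay in reads with no intron removed.

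Of the 16 patterns of excision and retention over introns 15 to 18, 7 reached a mean of 0.5% in either architecture. The pattern with all 4 introns excised made up 79.6% ± 3.88 of reads with introns 19 and 20 and 24.9% ± 7.75 without. The pattern that retained intron 18 alone made up 1.12% ± 0.438 and 51.5% ± 4.16. Both serve as background, and the other 5 retained an upstream intron.

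Introns 17 and 18 were retained together, with 15 and 16 excised, in 0.0739% and 0.464% of long reads and 0.857% and 1.68% of long_alt reads. The same pattern made up 2.76% and 4.42% of short_1 reads and 14.5% and 15.7% of short_1_alt reads. It was the most frequent partially spliced pattern of the short constructs with the alternative allele, and the architectures did not overlap.

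Introns 16, 17 and 18 were retained together, with intron 15 excised, in 0.0435% and 0.498% of long reads, 0.122% and 0.941% of long_alt reads, 2.75% and 5.33% of short_1 reads, and 4.27% and 8.92% of short_1_alt reads. Introns 16 and 18 were retained with 15 and 17 excised in 0.00870% and 0.0297% of long reads, 0.00875% and 0.0156% of long_alt reads, 0.544% and 0.711% of short_1 reads, and 0.616% and 0.509% of short_1_alt reads. Neither pattern overlapped between architectures. All of introns 15 to 18 were retained in 0% and 0.201% of long reads, 0% and 0.280% of long_alt reads, 2.11% and 7.39% of short_1 reads, and 2.86% and 7.60% of short_1_alt reads, again without overlap.

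The exception among the named patterns was intron 17 retained alone. It was also the only named pattern that excised intron 18 and retained an upstream intron. It made up 0.126% and 0.175% of long reads, 1.58% and 2.68% of long_alt reads, 0.100% and 0.125% of short_1 reads and 0.520% and 0.627% of short_1_alt reads. Its mean was 1.14% with introns 19 and 20 and 0.343% without, the groups overlapped, and the exact permutation test gave p = 0.286 (0.381 after adjustment over the 16 patterns). It was thus the only named pattern with an upstream intron retained whose mean was higher in the long constructs. The 9 patterns below 0.5% had means of at most 0.163% with introns 19 and 20 and at most 0.366% without. Those of them that retained intron 18 did not overlap and were higher without introns 19 and 20 (exact permutation p = 0.0286 each). Those that excised intron 18 overlapped (p = 0.171 to 0.971, exact permutation test), except the pattern with introns 15, 16 and 17 all retained (p = 0.0286). The separation thus lay mostly in patterns that include intron 18.

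**Figure D2:**
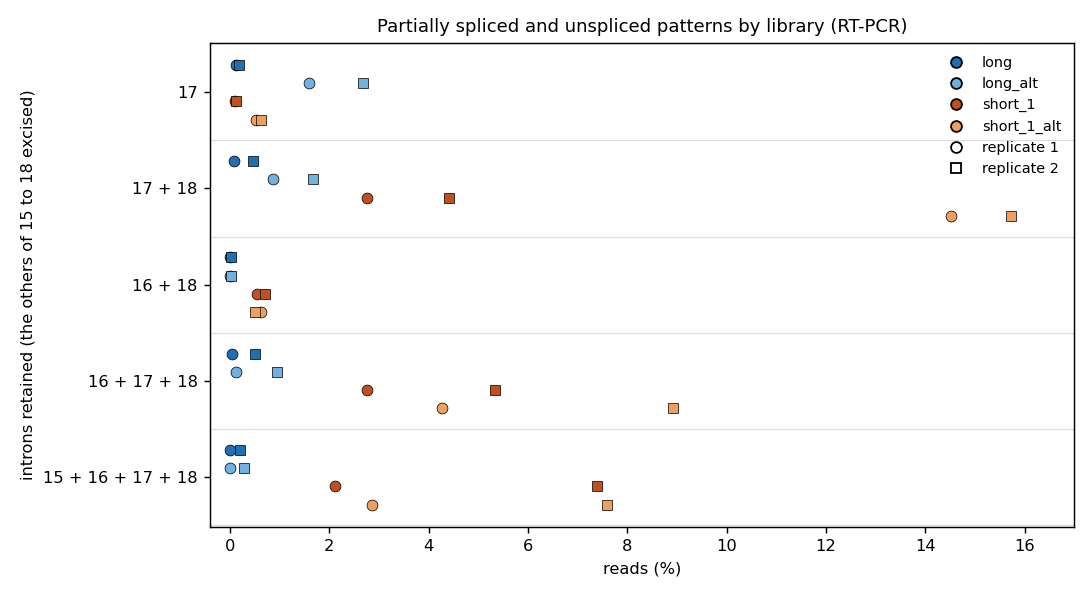
Percent of reads (horizontal axis) with each named pattern that retained an upstream intron, in the 8 minigene libraries; colours are minigenes, circles replicate 1 and squares replicate 2. The 4 patterns that include intron 18 lie further right in all short_1 and short_1_alt libraries, and intron 17 alone lies furthest right in long_alt.

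The upstream introns in the short constructs were retained almost always on molecules that also retained intron 18. Of reads with an upstream intron retained, intron 18 was retained in 23.4% and 53.3% (long), 33.5% and 44.0% (long_alt), 94.2% and 96.0% (short_1), and 96.1% and 96.7% (short_1_alt). These groups did not overlap (exact permutation p = 0.0286, 0.0462 adjusted over the 63 measures). Over all reads, however, intron 18 was retained in 2.45% with introns 19 and 20 and in 73.2% without. The shares among reads with an upstream intron retained do not allow for that difference, and the odds ratios given below do. As a share of all reads, an upstream intron was retained together with intron 18 in 1.32% ± 1.18 with introns 19 and 20 and in 21.1% ± 10.4 without. An upstream intron was retained with intron 18 excised in 1.51% ± 1.32 and 0.816% ± 0.262, which overlapped (p = 0.400, exact permutation test).

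The 2 states of intron 18 were then taken apart. Among reads that retained intron 18, an upstream intron was retained in 17.3% and 43.2% of long reads, 50.8% and 67.7% of long_alt reads, 13.8% and 26.6% of short_1 reads, and 29.3% and 42.3% of short_1_alt reads. The mean was 44.7% ± 21.0 with introns 19 and 20 and 28.0% ± 11.7 without, opposite in direction to the shares over all reads. The groups overlapped, and the exact permutation test gave p = 0.229 (0.274 adjusted over the 12). With the reference allele the means were 30.2% and 20.2%, with overlap. With the alternative allele they were 59.3% and 35.8%, and both long libraries exceeded both short libraries. Exact permutation within alleles gave p = 0.167. In the long constructs this share rests on 168 to 1394 reads per library, because few reads retained intron 18.

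Among reads that excised intron 18, an upstream intron was retained in 0.363% and 0.842% of long reads, 2.19% and 4.06% of long_alt reads, 1.41% and 2.62% of short_1 reads, and 4.30% and 5.83% of short_1_alt reads. The means were 1.87% ± 1.66 and 3.54% ± 1.94, and the exact permutation test gave p = 0.229. The overlap was between alleles: with the reference allele the means were 0.603% and 2.01%, with the alternative allele 3.13% and 5.06%, and within each allele both short libraries exceeded both long libraries. With 2 libraries a side the smallest exact p is 0.333, and permutation within alleles gave 0.0556, the smallest it allows.

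The 3 introns were also taken singly. In reads that excised intron 18, intron 15 was retained in 0.133% ± 0.105 with introns 19 and 20 and 0.936% ± 0.390 without, and intron 16 in 0.351% ± 0.202 and 1.33% ± 0.390. Neither overlapped between architectures (exact permutation p = 0.0286, 0.0462 adjusted over the 63 measures). Intron 17 was retained in 1.55% ± 1.60 and 2.24% ± 1.66 of such reads, which overlapped (p = 0.571, exact permutation test). With the reference allele its means were 0.277% ± 0.0889 (long) and 0.874% ± 0.254 (short_1), without overlap (SD, n = 2 each). With the alternative allele they were 2.82% ± 1.10 (long_alt) and 3.60% ± 0.844 (short_1_alt), with overlap. Whether these 3 differences differ from each other was not tested.

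**Figure D3:**
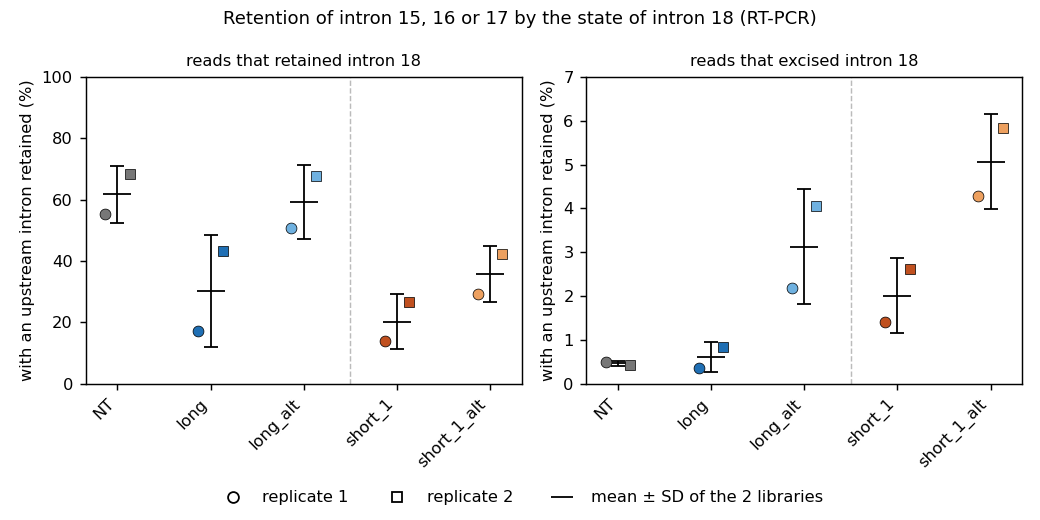
Percent of reads with intron 15, 16 or 17 retained, among reads that retained intron 18 (left) and among reads that excised it (right, with its own scale), by library; symbols and bars as in the plot of retention by library. On the left the long and short constructs overlap, and on the right each short construct lies above the long construct with the same allele.

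In reads that retained 1 of 2 neighbouring introns, the identity of the retained intron shows which of the pair had been removed first. Of reads that retained only 1 of introns 17 and 18, intron 18 was the retained one in 77.5% and 84.5% of long reads and 36.8% and 32.8% of long_alt reads. It was the retained one in 99.6% and 99.4% of short_1 reads and 98.9% and 98.3% of short_1_alt reads. The architectures did not overlap and the difference of 41.1 percentage points reached the smallest p. With introns 19 and 20 the alternative allele put intron 17 as the more frequent remaining intron in both libraries, whereas without them intron 18 remained in nearly all such reads of both alleles. Without introns 19 and 20, however, 73.2% of all reads retained intron 18. In short_1 replicate 1, for example, reads with only intron 18 of the pair retained numbered 18081, against 82 with only intron 17. The share therefore follows the level of intron 18 retention and cannot by itself show a change in the order of removal.

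The pairs further upstream did not show such a difference. Of reads that retained only 1 of introns 16 and 17, intron 17 was the retained one in 66.2% and 64.9% (long), 95.3% and 93.9% (long_alt), 76.3% and 77.6% (short_1), and 93.7% and 94.3% (short_1_alt). The groups overlapped (p = 0.629, exact permutation test), and the spread was mostly between alleles. With the reference allele alone the means were 65.5% and 76.9%, without overlap between 2 libraries a side. Of reads that retained only 1 of introns 15 and 16, intron 16 was the retained one in 85.7 to 90.4% with introns 19 and 20 and in 88.6 to 91.6% without (p = 0.257, exact permutation test). In all 8 libraries the intron that remained was thus more often intron 16 than 15, and more often intron 17 than 16. Retention over all reads also rose from intron 15 to 16 to 17 in every library. These shares therefore follow the retention levels as well and cannot by themselves show the order of removal.

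**Figure D4:**
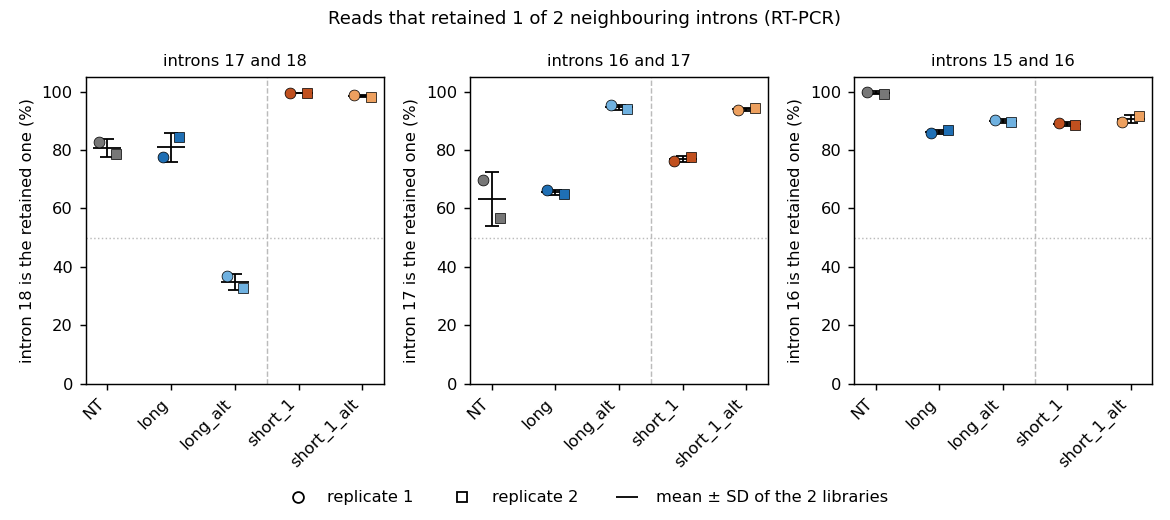
Among reads that retained exactly 1 of 2 neighbouring introns, the percent in which the downstream intron was the retained one, by library, for introns 17 and 18, 16 and 17, and 15 and 16; the dotted line marks equal shares. Only long_alt lies below that line, at 36.8% and 32.8% for introns 17 and 18, and the short constructs lie between 98.3% and 99.6% in that panel.

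Retention of neighbouring upstream introns went together more often in the short constructs. Of reads that retained intron 15, intron 16 was also retained in 0% and 38.8% (long), 1.75% and 43.5% (long_alt), 84.1% and 90.4% (short_1), and 84.2% and 89.7% (short_1_alt). Of reads that retained intron 16, intron 17 was also retained in 45.8% and 69.1% (long), 57.7% and 82.0% (long_alt), 84.5% and 90.4% (short_1), and 87.5% and 94.2% (short_1_alt). Neither overlapped between architectures (exact permutation p = 0.0286 each). In the 2 long libraries numbered 1 the first share rests on 27 reads and 57 reads that retained intron 15. The total behind that share includes reads in which intron 16 was skipped. Of 183 long replicate 2 reads that retained intron 15, 71 also retained intron 16 and 38 excised it. For long_alt replicate 2 these counts were 262, 114 and 52. They were 2801, 2533 and 262 for short_1 replicate 2, and 1985, 1781 and 197 for short_1_alt replicate 2. Skipped reads thus lowered the first share more in the long constructs. Intron 18 was also retained in 38.0 to 78.6% of long reads, 36.3 to 49.1% of long_alt reads and 96.7 to 98.2% of reads of the short constructs that retained intron 17.

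The odds ratio of joint retention, which allows for the higher overall retention, was computed as well. For introns 15 and 16 its log2 was 6.05 ± 1.50 with introns 19 and 20 and 6.75 ± 0.44 without, and for introns 16 and 17 it was 7.26 ± 1.42 and 6.47 ± 1.12 (0.5 reads added to each class). Both overlapped (p = 0.400 and 0.429, exact permutation test). For introns 15 and 16 the long libraries numbered 1 held 0 and 1 reads that retained both, so their values rest on the added 0.5 reads and this pair cannot be compared on that scale. For introns 17 and 18 it was 6.40 ± 0.97 and 4.20 ± 0.55, and for introns 16 and 18 it was 5.79 ± 0.45 and 3.66 ± 0.41, with no overlap in either (p = 0.0286, exact permutation test). The odds ratio of introns 16 and 17 to intron 18 was thus lower without introns 19 and 20. For introns 15 and 18 it was 3.34 ± 2.26 and 3.12 ± 0.42, and for introns 15 and 17 it was 4.56 ± 1.41 and 5.06 ± 0.85. Both overlapped (p = 0.943 and 0.600, exact permutation test). The long libraries numbered 1 held 0 reads that retained both introns 15 and 18, so that pair also rests on the added 0.5 reads. The p-values of the pairs were not adjusted for their number.

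Across all combinations of statuses, skips included, 68 held at least 10 reads over the 8 libraries. The architectures did not overlap for 44 of them (64.7%), of which 26 (38.2%) were more frequent with introns 19 and 20 and 18 (26.5%) without. Of the 15 combinations with a retained intron and no skip, 9 (60.0%) were more frequent without introns 19 and 20 and 0 were more frequent with them. Every such combination that retained intron 18 was among the 9, so this count mostly repeats the difference in intron 18 retention. Of those that excised intron 18, only the one with introns 15, 16 and 17 all retained was among them (0.00474% with introns 19 and 20, 0.0512% without). Of the 31 combinations with a skip and no retained intron, 20 (64.5%) were more frequent with introns 19 and 20 and 0 without. Most of the 20 and most of the 26 skip the 3′ splice site of intron 18, with a junction ending beyond exon 19. The short constructs contain no exon there to join, so for those combinations the direction was set by the constructs. With introns 19 and 20 both excised in the long reads, 58 combinations held at least 10 reads. Of these, 32 did not overlap, with 14 more frequent with introns 19 and 20 and 18 without. Shares add up to 100% in each library, so a rise of 1 combination lowers the others.

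Skipped splice sites were more frequent with introns 19 and 20, mostly through junctions that the short constructs cannot make. A splice site of introns 15 to 17 was skipped in 7.45% and 4.38% of long reads, 10.1% and 10.7% of long_alt reads, 1.35% and 1.21% of short_1 reads, and 0.827% and 0.978% of short_1_alt reads. The mean of 8.16% ± 2.88 with introns 19 and 20 against 1.09% ± 0.232 without reached the smallest p. Most of these junctions ended beyond exon 19, at 6.52% with introns 19 and 20 and 0.0566% without, and the short constructs contain no exon there to join. Junctions that ended at or before exon 19, which both architectures can make, were at 1.63% ± 0.412 and 1.03% ± 0.236, and these groups overlapped (p = 0.0857, exact permutation test).

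Among the 3 most frequent combinations of the long constructs were 2 with a skip. Introns 15 to 17 excised with the 5′ splice site of intron 18 skipped made up 7.14% with introns 19 and 20 and 0.497% without. Excision of intron 15 followed by a junction from the 5′ splice site of intron 16 past the whole of introns 17 and 18 made up 5.36% and 0.0213%. That junction ends beyond exon 19, where the short constructs contain no exon to join, so the direction of this difference was set by the constructs. Exon skipping within the shared exons was rarer. Exon 17 was skipped alone in 0.612% and 0.519% of reads, which overlapped (p = 0.629, exact permutation test), and exons 17 and 18 were skipped together in 0.367% and 0.0223%, which did not (p = 0.0286, exact permutation test); these 2 events were chosen after their values were seen.

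Direct RNA reads, which were not amplified, were available for the reference allele only, with 981 usable reads of the long minigene and 182 of short_1. Intron 15 was retained in 5 of 981 long reads (0.510%, 95% Wilson interval 0.218 to 1.19%) and in 3 of 182 short_1 reads (1.65%, 0.562 to 4.73%), which did not pass (Fisher's exact test, two-sided, p = 0.116). Intron 16 was retained in 18 long reads (1.83%, 1.16 to 2.88%) and 11 short_1 reads (6.04%, 3.41 to 10.5%), and intron 17 in 22 (2.24%, 1.49 to 3.37%) and 12 (6.59%, 3.81 to 11.2%). Both passed after adjustment over 9 measures (Fisher's exact test, adjusted p = 0.0104 each). Over reads that listed at least introns 15 to 18, both missed the threshold (Fisher's exact test, adjusted p = 0.0612 each). That wider choice adds 58 reads to the 182 of short_1, and all 58 list intron 19 or 20, which this minigene does not contain. With 1 library each, these tests compare 2 libraries and not the constructs. The RT-PCR means of the same 2 minigenes lay further apart than the direct RNA values. For intron 16 they were 0.699% (long) and 10.1% (short_1), and for intron 17 they were 0.901% and 12.8%.

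The direct RNA reads also separated the states of intron 18. An upstream intron was retained in 25 of 47 long reads that retained intron 18 (53.2%, 39.2 to 66.7%) and in 13 of 129 such short_1 reads (10.1%, 5.98 to 16.5%), with an adjusted p of 6.33e-08 by Fisher's exact test. Among reads that excised intron 18, the reads with an upstream intron retained numbered 1 of 837 (long) and 0 of 53 (short_1), which allows a share of up to 5.66% in the latter. All 13 short_1 reads with an upstream intron retained therefore also retained intron 18. A splice site of introns 15 to 17 was skipped in 25 of 981 long reads (2.55%) and in 0 of 182 short_1 reads, which allows up to 1.65%. Endogenous transcripts that ended within the same exons would be counted alike, and their part was not tested in either library; of all 296 direct RNA reads of short_1, 67 listed intron 19 or 20.

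**Figure D5:**
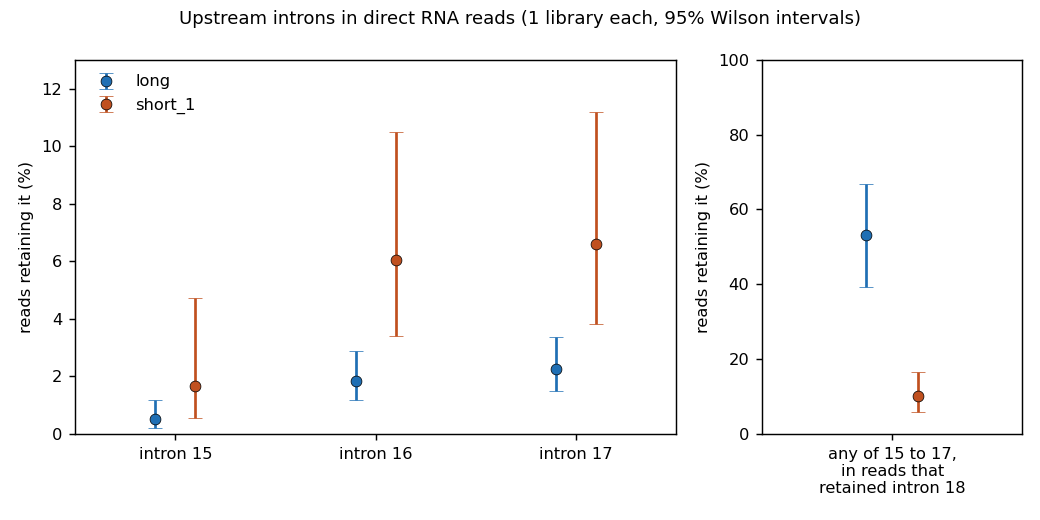
Percent of direct RNA reads that retained intron 15, 16 or 17 (left) and percent with any of them retained among reads that retained intron 18 (right), in 1 library of the long and 1 of the short_1 minigene, with 95% Wilson intervals. The short_1 values lie above the long values on the left and below on the right, at 10.1% against 53.2%.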

How the data were processed

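Intron statuses of EIF4G2 reads were compared between minigenes with and without introns 19 and 20. The authors basecalled the nanopore reads, aligned them to GRCh38 with minimap2, kept uniquely mapped reads and read the status of each intron from the alignment. The deposited values are the count of reads that share a combination of statuses, per library, as whole numbers without normalization. The files number introns from the other end, so that file and transcript intron numbers add up to 21.

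Groups were taken from the sample labels. Reads covering exactly introns 15 to 20 (long, long_alt, NT) or 15 to 18 (short_1, short_1_alt) were kept where no status was undetermined, and shares were computed per library with Python 3.11.15, NumPy 2.4.6, pandas 2.3.3 and SciPy 1.17.1. The 8 libraries held 24309 to 49577 reads each, of which 92.1 to 93.9% covered the required introns. Architectures were compared by a two-sided exact permutation test over the 4 and 4 libraries with threshold 0.05, with Benjamini-Hochberg adjustment over 12 comparisons, and over all 63 measures or 16 patterns where stated. Direct RNA reads, with 1 library a construct, were compared by Fisher's exact test. All 16 patterns of excision and retention were computed, those with a mean of at least 0.5% in either architecture were described by library, and combinations with a skip were named where they were among the 3 most frequent of an architecture. The scripts were tested on simulated data. The measures, patterns and alternatives were chosen with earlier results of these data known. The replicates of each minigene differed by more than counting error (chi-square per degree of freedom 27.1 to 53.7) and were kept as separate samples. The 4 direct RNA libraries of other constructs were not used here.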

Additional observations from a re-analysis of the deposited data

Results flagged for a closer look

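Reads that listed intron 19 or 20 appeared in the libraries of the short constructs, whose minigenes lack both introns. They numbered 62 in short_1 replicate 1, 26 in short_1 replicate 2, 52 in short_1_alt replicate 1 and 31 in short_1_alt replicate 2, each above the 3 reads that a count of 0 allows, out of 24309 to 35808 reads. In the direct RNA library of short_1 they numbered 67 of 296 reads. They are not among the reads that cover exactly introns 15 to 18, on which the comparisons rest, but those that list introns 15 to 18 enter the alternative with reads listing at least these introns. Their origin was not tested. In 26 tests for a single library far from the other 3 of its architecture (Dixon's test), none stood apart, where chance gives about 1 in 20 groups.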

How the results depend on the processing

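The higher retention of introns 15, 16 and 17 without introns 19 and 20, singly, together and as partially spliced reads, kept its direction and an exact permutation p of 0.0286 with reads listing at least introns 15 to 18, with introns 19 and 20 both excised in the long reads, with undetermined reads kept, with skipped reads left out, with combinations under 2 or under 10 reads left out, on log2 odds and without reads retaining all of introns 15 to 18.

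Replicate numbers are shared between minigenes, but the labels do not say what they share. Deviations from the group means over the 12 comparisons correlated at 0.489 to 0.976 between minigenes. With the replicate number as a block, and likewise with the allele as a block, no p can fall below 0.0556. The 8 differences that had reached the smallest p reached that value under both blocks, with unchanged sizes (with minus without introns 19 and 20, percentage points): -5.64 for intron 15, -10.7 for intron 16, -17.8 for intron 17, -18.9 for at least 1 of the 3, -14.1 for partially spliced reads, -4.92 for all 3 retained, 7.07 for skipping and -41.1 for intron 18 left of introns 17 and 18.

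With 1 library left out, the difference ranged from -6.73 to -4.69 for intron 15, -12.6 to -8.63 for intron 16, -21.9 to -13.4 for intron 17, -23.1 to -14.5 for at least 1, -17.4 to -10.6 for partially spliced reads, -5.89 to -4.05 for all 3, 6.23 to 8.33 for skipping and -50.0 to -32.8 for intron 18 left of 17 and 18. The groups cannot come to overlap, but with 3 libraries against 4 the exact p was 0.0571 to 0.0857 in 4 of the 8 fits of each. Upstream retention given intron 18 ranged from 9.06 to 25.9 where it was retained and from -2.40 to -0.907 where it was excised, intron 17 left of 16 and 17 from -10.5 to -0.309, and intron 16 left of 15 and 16 from -2.44 to -0.885. With combinations under 10 reads left out, the last turned to 2.54 (p = 0.514, exact permutation test). With the reads of each architecture pooled, which gives no test, upstream retention differed by 27.1 where intron 18 was retained and -0.910 where it was excised, and intron 17 left of 16 and 17 turned from -5.38 to 1.72. The other 9 differences kept their direction.

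Skipping differed by 0.760 percentage points among long reads with introns 19 and 20 excised and by 0.602 for junctions ending at or before exon 19 (p = 0.0857 each, exact permutation test). The 44 non-overlapping combinations (26 higher with, 18 without) became 10 (1 and 9) without skipped reads, 22 (11 and 11) without combinations under 10 reads and 21 (12 and 9) at 100 reads or more. Those higher with became 14 with introns 19 and 20 excised, and those higher without became 34 with undetermined reads kept. With 1 library left out, they numbered 26 to 34, with 10 to 26 higher with and 8 to 18 higher without. No block could be run on them, as no p under the threshold exists there.

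In direct RNA reads listing at least introns 15 to 18, the differences (long minus short_1) fell short of the threshold, at -2.60 for intron 16, -2.96 for intron 17, -3.00 for at least 1 of the 3 and -2.22 for partially spliced reads (Fisher's exact test, adjusted p = 0.0612 to 0.117). Of the 240 short_1 reads chosen this way, 58 were added, all listing intron 19 or 20, which that minigene lacks.

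Only 2 libraries per minigene and amplicons of unequal length limit these shares, and in the long libraries numbered 1 few reads retained intron 15.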
